A study of Homo sapiens with 5 samples.

Results

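A set of 8 mucin genes (MUC5B, MUC5AC, MUC1, MUC16, MUC4, MUC13, MUC20 and MUC3A) were followed through RNA of a pair of human lung adenocarcinoma cell lines mixed in known proportions. The members were all transcripts that the GENCODE v44 annotation assigns to these 8 gene names, out of 61220 genes with a transcript in the tables. They had 75 transcripts, of which 54 held reads, and together they took 10045 of 17039787 reads. Both lines, NCI-H1975 and HCC827, are established and came from the ATCC, per the labels. RNA of NCI-H1975 carried sequins (synthetic spike-in transcripts) of mix A and RNA of HCC827 carried sequins of mix B, per the labels, and a single RNA preparation of each line was used. The RNAs were combined by mass in ratios from 100:0 to 0:100 in steps of 25%, always with NCI-H1975 named first, and each ratio had 1 library. All 5 libraries shared poly(A) selection, an input of 1 ng, 16 PCR cycles, size selection for about 2 kb and nanopore PromethION sequencing, and none received a treatment. With 1 preparation per line, p-values do not measure scatter between cultures. Those of the fitted trends test a slope against 0. The spread they use is the departure of these libraries from the trend, drawn in part from all genes tested. Levels mix on a linear scale and the trend is fitted on a log2 scale, so that departure includes curvature.

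Mucins are large proteins whose serine- and threonine-rich stretches carry dense O-linked sugar chains. MUC5AC and MUC5B are secreted, polymerise through disulfide bonds and form the gel of airway mucus. MUC1, MUC3A, MUC4, MUC13 and MUC16 span the cell membrane, where they form part of the glycocalyx and shed their outer parts, and MUC20 is a smaller mucin that has been linked to the receptor MET. In lung adenocarcinoma, MUC1 is widely expressed on tumour cells, and MUC16 is the protein that carries the CA125 epitope.

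The sequences below come from the gene with most reads, MUC1, and are shown because they are what tells its transcripts apart. The gene lies on the minus strand of chromosome 1 from 155185824 to 155192916 (GRCh38, as are all coordinates here). The exon after the first is annotated with a pair of acceptors, at 155192310 and 155192283, which are 27 bases apart, and each was used by 11 of the 26 annotated transcripts. Both join sequences are within chr1:155192264-155192805, in coding exons, and the capitals mark the segment that the upstream acceptor adds.
upstream acceptor: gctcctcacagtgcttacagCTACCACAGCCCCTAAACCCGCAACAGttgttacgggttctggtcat
downstream acceptor: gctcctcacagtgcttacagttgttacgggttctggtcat

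MUC1-202, MUC1-221, MUC1-224 and MUC1-223 used the upstream acceptor and then joined a shortened second exon to 4 different points further on. Their joins span chr1:155188044-155192202, chr1:155188193-155192202, chr1:155188212-155192202 and chr1:155188266-155192202 in that order. Lower case marks the shared end of the second exon and capitals the start of the exon that follows.
MUC1-202: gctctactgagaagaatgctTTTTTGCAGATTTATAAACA
MUC1-221: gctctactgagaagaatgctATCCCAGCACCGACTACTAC
MUC1-224: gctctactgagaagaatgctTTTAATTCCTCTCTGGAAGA
MUC1-223: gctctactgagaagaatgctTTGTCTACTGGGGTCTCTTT

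MUC1-225, the canonical transcript of the annotation, used the downstream acceptor and kept a longer second exon. Its join from the second to the third exon spans chr1:155188597-155191927, with capitals from the first base of the third exon, and it falls inside consecutive copies of the tandem repeat of MUC1. The stretch that the annotation leaves between those exons, chr1:155188617-155191907, is 3291 bases long and repeats with a period of 60 bases. Of its bases, 85.4% equalled the base at the same place in the next unit. The unit printed here is its most frequent 60-base stretch, first found at chr1:155191821-155191880.
MUC1-225: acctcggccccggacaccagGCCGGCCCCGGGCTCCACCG
MUC1 repeat unit: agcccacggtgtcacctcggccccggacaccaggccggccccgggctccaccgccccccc
The unit occurred 16 times exactly, and 43 times with up to 6 mismatches, in that stretch of the reference. The MUC1-225 transcript held 1 exact copy and 3 copies with up to 6 mismatches, and the 6 other transcripts with most reads held 0.

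**Figure D1:**
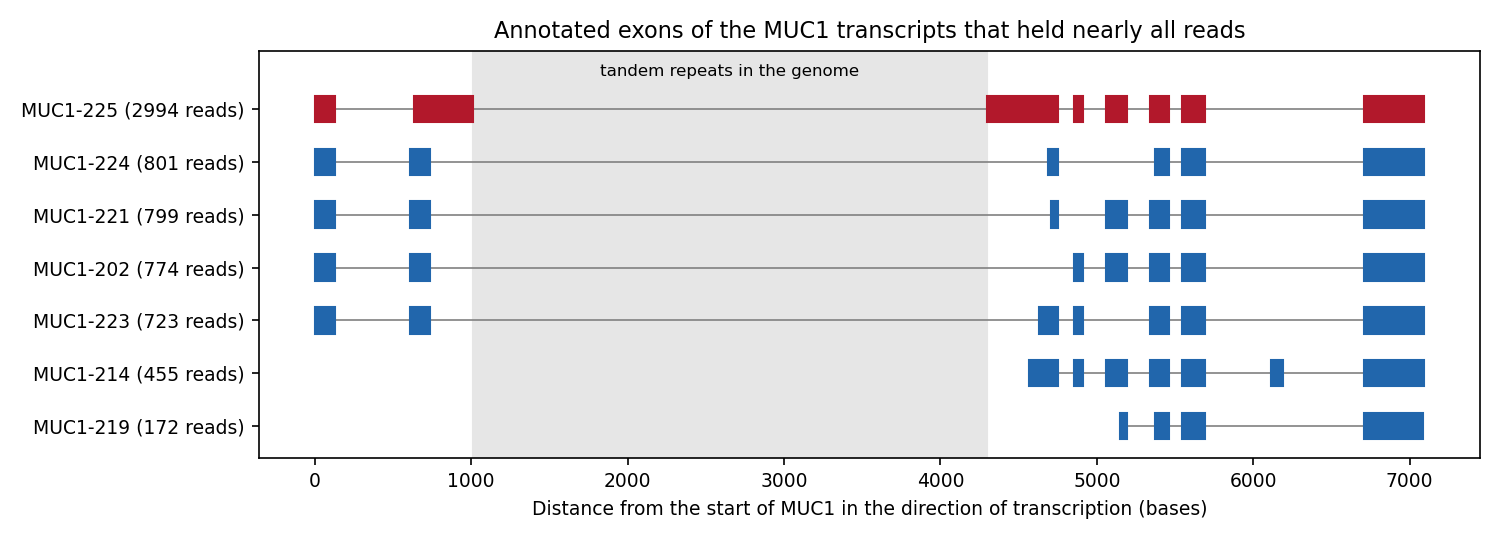
Exons of 7 annotated MUC1 transcripts (boxes) against the distance in bases from the gene's start, with total reads beside each name. The grey band is the 3291-base repeat stretch, which the 5 upper transcripts bridge and the lower 2 begin after.

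The coding sequences of the 8 genes were rich in codons for serine, threonine and proline, the residues of mucin domains. In the canonical transcript these made up 58.1% of codons in MUC3A, 48.0% in MUC4, 45.5% in MUC5AC, 44.6% in MUC16, 42.2% in MUC20, 41.8% in MUC5B, 36.4% in MUC1 and 30.7% in MUC13. The median over 18926 canonical coding transcripts was 18.6%, and the lowest member, MUC13, stood at the 98.0th percentile. Coding length in these transcripts ran from 475 codons in MUC1 to 14507 in MUC16. Both MUC1 values are for MUC1-225, which leaves out the 3291-base repeat stretch, so they hold for that annotated transcript only.

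Library totals ran from 2932250 to 4058751 reads, so a count of 0 allows between 0.739 and 1.02 reads per 1000000 assigned reads (CPM). All 9 markers of lung epithelium had at least 10 reads in some library, with a summed level of 6504 CPM at 100:0 and 14058 CPM at 0:100. Of immune markers 2 of 4 did (CD68, CD79A; summed 72.3 to 90.4 CPM), with PTPRC and CD3E at 0 throughout, and of endothelial markers 0 of 3. Of fibroblast markers 2 of 4 did (COL1A1, COL1A2; summed 215 CPM at 100:0 and 6.47 at 0:100), with DCN at 0 throughout. The epithelial markers did not all follow their sum. EPCAM had 1276 reads at 100:0 and 998 at 0:100, and in NCI-H1975 alone NAPSA had 7 reads and SFTPB 1. Mitochondrial transcripts took 5.64% of reads at 100:0 and 8.85% at 0:100, and the mean transcript length, weighted by reads, was 2579, 2468, 2363, 2272 and 2180 bases from 100:0 to 0:100. The part of these properties in the results below, including those on long mucin transcripts and per-length levels, was not tested. Sequin reads numbered 5475, 4678, 2830, 1269 and 0 from 100:0 to 0:100, so they fell with the NCI-H1975 share. At 0:100, where the label names mix B, 0 were found. The counts thus go against the label of mix B in HCC827 RNA, and the mucin counts have no spike-in check.

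Most of these mucin genes were higher in HCC827 RNA than in NCI-H1975 RNA. MUC5B, MUC5AC, MUC20, MUC16 and MUC4 rose with the HCC827 share, and MUC1 fell. The trend of each gene was the fitted log2 change from 0 to 100% HCC827 over the 5 libraries (the slope), with its standard error, and adjusted p-values below come from the edgeR quasi-likelihood test with Benjamini-Hochberg adjustment over all genes tested. Of the 7 members with at least 10 reads in at least 2 libraries, 6 had an adjusted p under 0.05, where the background was 45.8% of 13492 genes. For rises alone the count was 5 of 7 against a background of 23.5%, and for falls 1 of 7 against 22.3%. The median slope was 2.46 over the 7 members and -0.03 over all genes tested. MUC13 did not pass the filter on low counts, so the 7 are not all members. MUC5B, MUC5AC, MUC20 and MUC3A, with 2, 0, 4 and 4 reads at 100:0, passed it only through libraries with HCC827 RNA. The members and the related lists were chosen with earlier results of these data known. Counts set beside a background, here and below, are therefore a description and not a test of these sets.

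**Figure D2:**
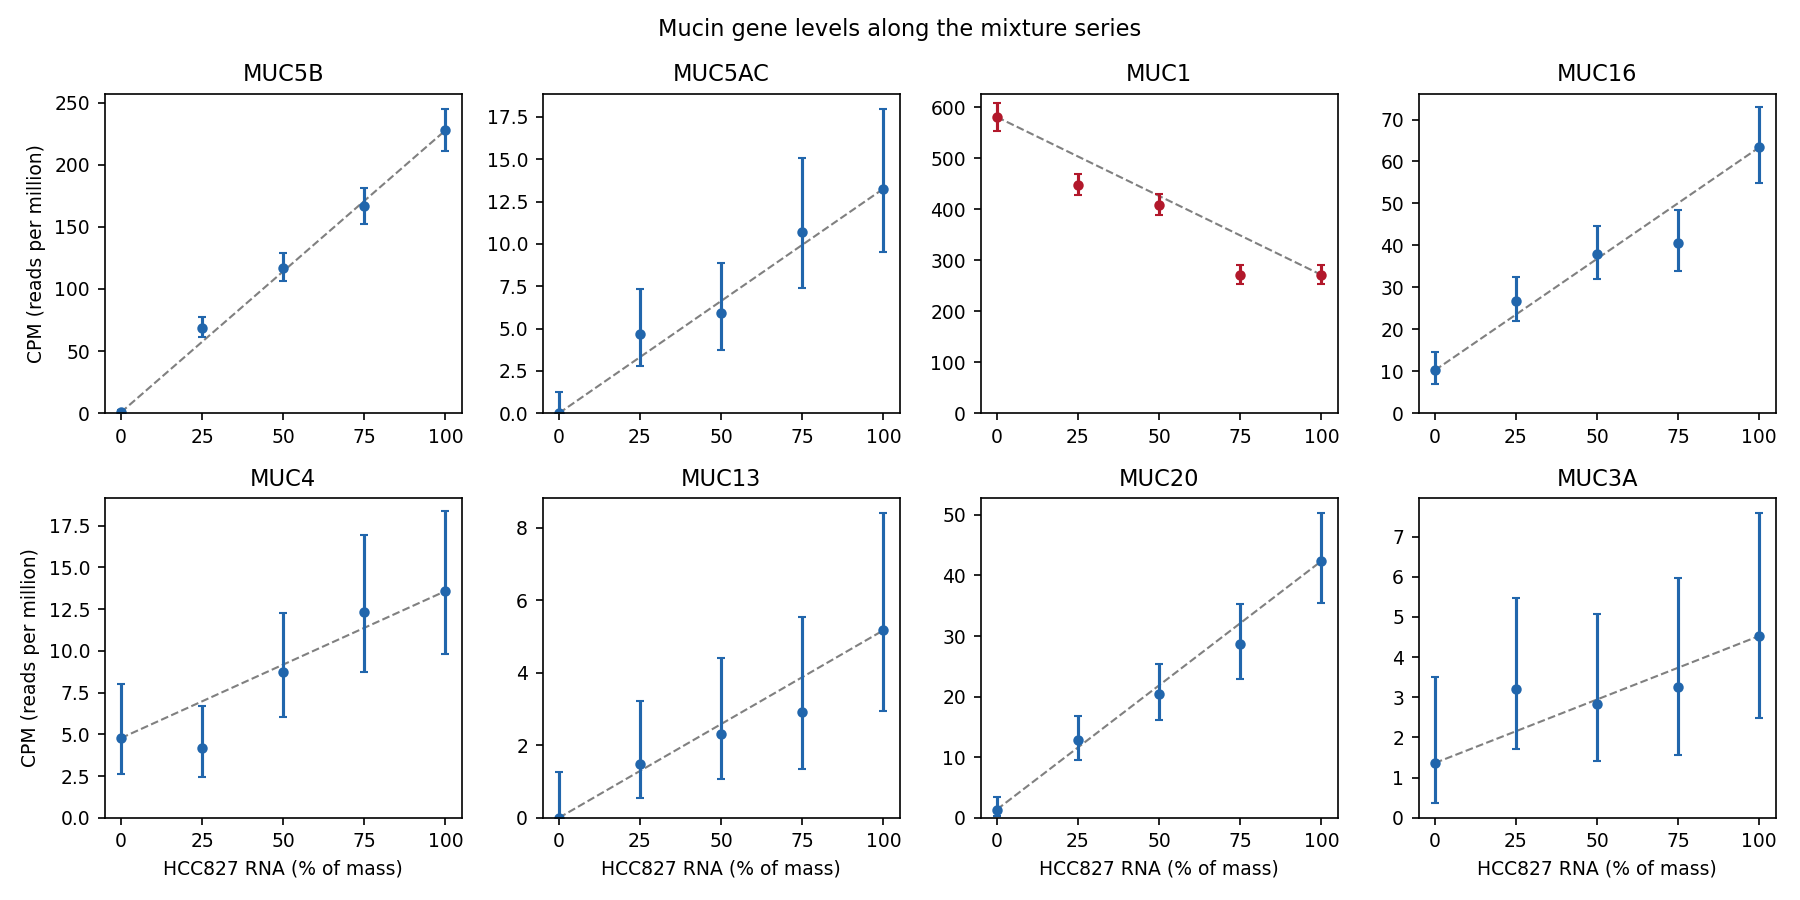
Level of each mucin gene in CPM against the HCC827 share of RNA mass in percent, 1 library per point, with exact Poisson 95% intervals and a dashed line between the pure libraries for linear mixing. MUC1 (red) is highest at 0% HCC827, and the other 7 genes (blue) are highest at 100%.

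Among the secreted mucins, MUC5B (11:1223066-1262172, plus strand) was nearly absent from NCI-H1975. It had 2, 280, 455, 512 and 704 reads from 100:0 to 0:100, which are 0.682, 69.0, 117, 166 and 228 CPM. The NCI-H1975 library was at the edge of detection, and each step towards HCC827 brought more. The slope was 3.93 ± 0.67 (SE, adjusted p = 0.000419, edgeR), and the ratio between the pure libraries was 444 (95% counting interval 123 to 3676), which rests on the 2 reads in NCI-H1975. In bulk RNA, fewer expressing cells and less RNA per cell cannot be told apart. Because levels mix on a linear scale, a log2 slope comes out smaller than the log2 ratio for a gene that 1 line nearly lacks.

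MUC5AC, the neighbouring gene at 11:1157953-1201138 on the same strand, had 0, 19, 23, 33 and 41 reads. These are 0, 4.68, 5.93, 10.7 and 13.3 CPM, so the gene was detected wherever HCC827 RNA was present and not in NCI-H1975 alone. Its slope was 3.44 ± 0.67 (adjusted p = 0.00116, edgeR), and the 0:100 library was 17.2-fold higher than a floor of 3 reads set for NCI-H1975 (5.17-fold with a floor of 10 reads). With the counting error of both libraries, the ratio was at least 13.4. All reads of the gene were assigned to MUC5AC-201 (17448 bases). Of the MUC5B reads, 1950 of 1953 were assigned to MUC5B-204 (17911 bases). Both calls, MUC5B and MUC5AC, were lost when only 75:25 and 100:0 were set against 25:75 and 0:100 as 2 groups (slopes 2.71 and 2.46, adjusted p = 0.0960 and 0.0660, edgeR).

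MUC1, the membrane mucin whose cytoplasmic tail takes part in signalling, ran the other way. It had 1703, 1817, 1586, 833 and 839 reads, or 581, 448, 409, 271 and 271 CPM. The NCI-H1975 library was highest, and the 25:75 and 0:100 libraries could not be told apart in CPM. The slope was -0.76 ± 0.14 (adjusted p = 0.000700, edgeR), and the 0:100 library was 1.61-fold lower after scaling by the trimmed mean of M-values (TMM; interval 1.48 to 1.75). The size of this difference depends on the scaling, since scaling by library totals gave 2.14-fold and moved the median slope of all genes to -0.44.

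MUC16, the largest of the membrane mucins (19:8848844-9010390, minus strand), had 30, 109, 147, 125 and 196 reads. Its levels were 10.2, 26.9, 37.9, 40.6 and 63.4 CPM, in order from NCI-H1975 to HCC827. The slope was 2.46 ± 0.28 (adjusted p = 2.56e-05, edgeR), the smallest adjusted p of the members, and the ratio between the pure libraries was 8.25 (5.60 to 12.5). Of its reads, 477 of 607 (78.6%, Wilson 95% interval 75.1 to 81.7) were assigned to the full-length MUC16-201 of 43816 bases, a share that lay between 73.3% and 80.6% in the single libraries. Such reads need not span the transcript, given the size selection, and read lengths were not analysed here.

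MUC4, a membrane mucin that binds the receptor ERBB2 (3:195746765-195811973, minus strand), had 14, 17, 34, 38 and 42 reads. These are 4.77, 4.19, 8.76, 12.4 and 13.6 CPM, with 100:0 and 75:25 low and within each other's counting error and the remaining 3 libraries higher. The slope was 2.23 ± 0.41 (adjusted p = 0.000754, edgeR) and the pure libraries differed 3.79-fold (2.03 to 7.51). In contrast to MUC16, its 10 annotated transcripts over 10000 bases took 22 of 145 reads (15.2%, 10.2 to 21.9), and the transcript with most reads was MUC4-205, a nonsense-mediated decay transcript of 3645 bases with 25. The length limit was chosen after the values were seen.

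MUC20, which lies beside MUC4 on the other strand (3:195720884-195741123), had 4, 52, 79, 88 and 131 reads. Its levels were 1.36, 12.8, 20.4, 28.6 and 42.4 CPM, low in NCI-H1975 and higher with each addition of HCC827. The slope was 3.43 ± 0.44 (adjusted p = 5.39e-05, edgeR) and the ratio 41.3 (15.8 to 154). The noncoding gene MUC20-OT1 overlaps it on the same strand over 19081 bases and had 25, 66, 99, 95 and 104 reads (slope 2.15, adjusted p = 8.75e-05, edgeR), so how reads of the shared stretch were divided between them bears on both counts. The pseudogene MUC20P1 had 1 read in all libraries together. MUC20-203 was the transcript with most reads, 165 of 354.

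MUC13 and MUC3A, membrane mucins best known from the gut, had the fewest reads of the members over the 5 libraries together, 40 and 52. MUC13 (3:124905442-124953819, minus strand) had 0, 6, 9, 9 and 16 reads, all on MUC13-205, and was listed above 0 in each library that held HCC827 RNA. The 0:100 library was 6.73-fold higher than the same floor of 3 reads for NCI-H1975 (2.02-fold with a floor of 10 reads), with no test. With the counting error of both libraries, the ratio was at least 4.87. MUC3A (7:100949534-100968347, plus strand) had 4, 13, 11, 10 and 14 reads, or 1.36, 3.20, 2.84, 3.25 and 4.53 CPM. Its slope of 1.56 ± 0.65 missed the threshold (adjusted p = 0.0660, edgeR), and the ratio of the pure libraries was 4.42 (1.39 to 18.4). At this depth, MUC3A in the 3 mixed libraries could not be told apart.

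Without a test, 6 of 8 members differed by at least 4-fold between the pure libraries, all of them higher in HCC827: MUC5B, MUC20, MUC5AC, MUC16, MUC13 and MUC3A. The background over genes that passed the filter on low counts was 11.0% of 13488 in either direction and 4.97% for those higher in HCC827. MUC13 did not pass that filter, so the 8 members and the background are not the same kind of set. Of the members, 0 were 4-fold lower, where the background was 5.98%. MUC4 stood just below the limit at 3.79-fold, and MUC3A just above it at 4.42-fold.

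The mixed libraries were then set beside a straight line between the pure libraries at the mass ratio. Of 24 values, 19 had the expected count within their 95% Poisson interval, 1 lay above it and 4 below. MUC1 had 2 of these values, with 1817 reads against 2043 expected at 75:25 and 833 against 1073 at 25:75. MUC5B had 280 reads against 233 at 75:25. MUC4 had 17 reads against 28.3 at 75:25, and MUC16 had 125 against 154 at 25:75. The intervals hold the counting error of the mixed library alone and not that of the pure libraries behind the line, such as the 14 MUC4 reads at 100:0, so these departures are a description and not a test. The same count was not made over all genes, so whether mucins depart more often than other genes is not known. When the HCC827 share was taken from the reads of all genes (32.7, 55.4 and 78.2% in place of 25, 50 and 75%), MUC5B came within its interval, and the 4 low values remained outside theirs.

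To compare genes with each other, reads were divided by transcript length in kilobases and scaled to a sum of 1000000 in every library. On this per-length scale MUC1 had the highest level of the 8 in every library, at 534 in NCI-H1975 and 207 in HCC827. In HCC827 the per-length levels that followed were 15.4 for MUC20, 12.6 for MUC5B, 4.56 for MUC16, 3.34 for MUC4, 1.77 for MUC13, 0.748 for MUC5AC and 0.396 for MUC3A. In NCI-H1975 the order after MUC1 was MUC4 at 1.64, MUC16 at 1.06, MUC20 at 0.600, MUC3A at 0.142 and MUC5B at 0.0445, with MUC5AC and MUC13 at 0. MUC5B thus moved from the lowest detected per-length level of the members in NCI-H1975 to a place behind MUC1 and MUC20 in HCC827. In reads at 0:100, MUC5B had 704 and MUC20 131, so their order depends on the length scaling. The MUC1 levels depend on it too, since the length of MUC1-225, 1811 bases, leaves out the 3291-base repeat stretch. With 1 library per ratio, neighbours in these orders have no measured spread.

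The make-up of the mucin reads differed between the lines. MUC1 held 96.9% of the reads of the 8 genes at 100:0, then 78.6, 67.7, 50.5 and 42.3%. MUC5B held 0.114% at 100:0 and 35.5% at 0:100, and MUC16 held 1.71% and 9.88%. On the per-length scale MUC1 went from 99.4% of the members' summed level to 84.2%. A long read is counted once whatever the length of its transcript, and the MUC5B to MUC1 ratio in HCC827 was 0.0608 per length and 0.839 in reads.

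The composition of MUC1 was next followed, since the level of the gene fell while its transcripts could have shifted among themselves. MUC1-225 took 42.8, 46.3, 41.7, 45.5 and 45.8% of MUC1 reads from 100:0 to 0:100. MUC1-221, MUC1-202, MUC1-224 and MUC1-223 each took between 9.54% and 12.8% in every library, and their sum was 47.8, 43.5, 47.0, 44.4 and 44.9%. MUC1-214, which begins within the gene, took 6.46, 6.77, 7.44, 6.12 and 6.32%. No library stood apart in these shares, which are of reads as assigned to transcripts. How reads that fit several transcripts were divided is not given. These shares and the tests on them below therefore cannot settle whether the transcripts shifted among themselves.

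**Figure D3:**
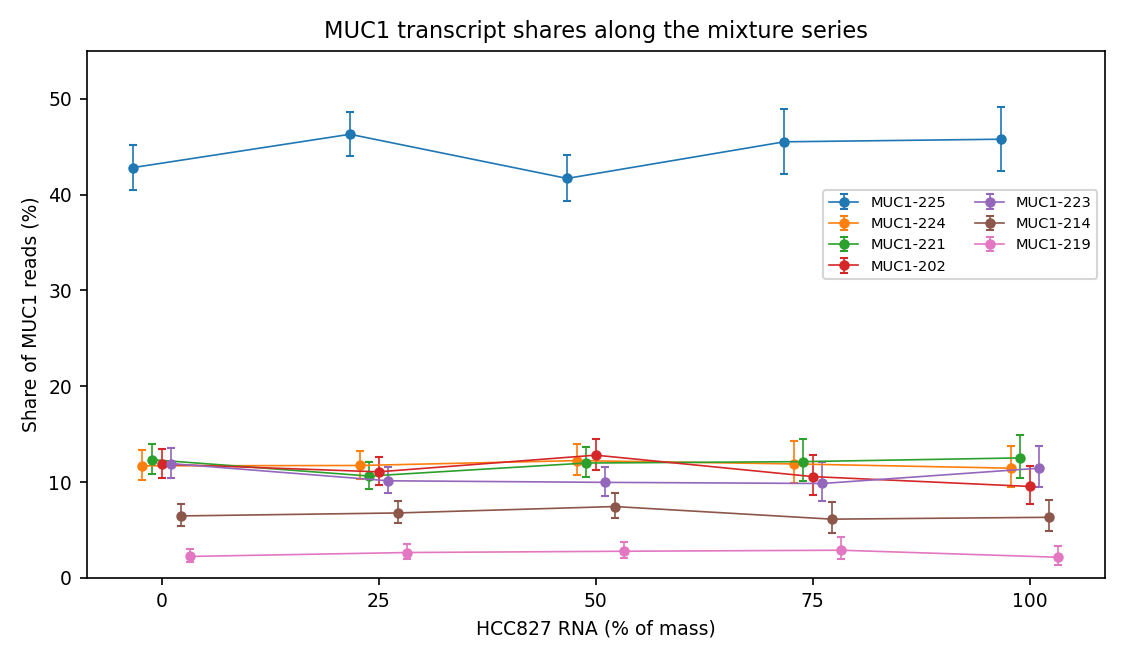
Share of MUC1 reads in percent for 7 transcripts against the HCC827 share of RNA mass, with Wilson 95% intervals and points shifted sideways for legibility. MUC1-225 stays between 41.7% and 46.3%, and 4 transcripts overlap between 9.54% and 12.8%.

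Usage of MUC1 transcripts along the series did not pass the test (adjusted p = 1, edgeR's diffSpliceDGE with Simes p-values per gene). MUC16 and MUC20, the other members with at least 2 tested transcripts, gave 0 calls as well and 0 unadjusted p under 0.05, where the background was 0.416% of 7456 genes. At the level of single transcripts, 14 of 17 tested member transcripts were called, 8 rising and 6 falling, against a background of 33.6%. Of the 17, 7 were MUC1 transcripts. Transcripts of the same gene are not independent, so this count largely repeats the gene trends above. The 6 falling ones were all MUC1 transcripts, and the MUC1 transcript not called was MUC1-219 (slope -0.74 ± 0.34, adjusted p = 0.103, edgeR).

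Classes of MUC1 transcripts drawn from the annotation were then compared. The longest coding exon of the gene, the 454 bases at chr1:155188163-155188616 that follow the repeat stretch, is held by MUC1-225 alone of the transcripts with reads, so its share is that of MUC1-225. Reads assigned to transcripts with the upstream acceptor were 52.8, 48.4, 52.7, 49.6 and 49.3% of those assigned to transcripts with either acceptor. All but 25 of them were on the 4 transcripts with near-even shares, and no read was examined at the acceptor itself. Protein-coding transcripts took 87.8, 89.7, 89.7, 89.9 and 88.2%, the rest being mostly MUC1-223, a nonsense-mediated decay transcript. Over all orders of the 5 libraries, a two-sided exact permutation test gave p = 0.467 for the longest exon, p = 0.4 for the acceptor and p = 0.767 for the coding class (0.7, 0.7 and 0.767 after Benjamini-Hochberg adjustment over 3 classes). The smallest p this design allows is 0.0167. A change of a few percentage points could not have been detected with these intervals, such as 42.4 to 49.2% for MUC1-225 at 0:100.

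The MUC1 reads were also concentrated by 3′ end. The 7 transcripts whose annotated ends lie between 155185824 and 155185830 held 6718 of 6778 reads (99.1%), and the other 19 held 60, although the nearest of their ends is at 155185948. This class was formed after the values were seen, and it holds for each library, at 98.9 to 99.3%. How reads that fit several transcripts were divided is not given in the sources used here, and the near-even shares of 4 transcripts with different joins are printed above as deposited. A protein-coding gene on the same strand, ENSG00000273088, overlaps the last 1449 bases of MUC1 and had 82 reads in all.

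Genes whose profile over the 5 libraries was most like a member's were found by Euclidean distance between TMM-scaled levels divided by their sum, over 11016 genes with at least 100 reads. For MUC5B the nearest was LCN2 (distance 0.00713), which encodes lipocalin 2 and had 5, 1530, 2503, 2873 and 3835 reads, followed by ENSG00000253553 and the water channel gene AQP5. For MUC5AC it was SPDEF (0.0138), a transcription factor gene of mucus cells, followed by FOXD1 and TMEM125. For MUC20 it was PRODH (0.0131), then TSPYL5 and NAPSA, the gene of the lung protease napsin A. MUC16 lay nearest FCHO1 (0.0125), DBNDD1 and TMEM91, and MUC4 nearest HPSE (0.0268), SVBP and BSPRY. MUC1 lay nearest ANLN (0.00468), GNA13 and HMGN3. Each distance is over 5 libraries made from 2 RNAs, so many genes share such a profile, and it is a description.

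Of 14 other mucin genes, 12 were scarce or not detected. MUC6, MUC7, MUC15, MUC17, MUC19, MUC22 and EMCN had 0 reads in all 5 libraries, which allows up to 0.176 CPM over the whole series. MUC12 had 20 reads, MUC21 7, MUC2 4, MUCL1 4 and MUCL3 3. CD164, a sialomucin, and MCAM, an adhesion molecule of the immunoglobulin superfamily, had enough reads to be tested. CD164 had a slope of -0.09 (adjusted p = 0.667, edgeR) and MCAM of -0.32 (adjusted p = 0.226, edgeR), so 0 of 2 were called, against 45.8% of all genes tested. Under library totals the same test called 2 of 2, against 51.0% of all genes tested.

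The enzymes that build O-linked sugar chains did not move in one direction. Of 24 tested, 15 (62.5%) were called, 7 rising and 8 falling, with a median slope of -0.13. Over all genes tested, 45.8% were called, 23.5% rising and 22.3% falling. B3GNT3, which extends core 1 chains, had 10.9, 24.9, 40.2, 54.0 and 69.8 CPM (slope 2.74 ± 0.25, adjusted p = 6.04e-06, edgeR). ST6GALNAC1, the sialyl-Tn synthase, had 0, 22, 42, 35 and 70 reads (slope 3.72 ± 0.61, adjusted p = 0.000340, edgeR), and GCNT3, a core 2 and core 4 branching enzyme, had 11, 22, 40, 45 and 46 (2.41 ± 0.40). All of these were highest in HCC827.

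In the other direction, ST3GAL1, which caps core 1 with sialic acid, had 72, 71, 42, 22 and 12 reads (slope -2.14 ± 0.32, adjusted p = 0.000178, edgeR). GALNT1, one of the enzymes that add the first sugar, had 158, 162, 106, 62 and 57 (-1.27 ± 0.21). GALNT11 fell by 1.48 and ST6GALNAC2 by 2.32 on the log2 scale. ST6GALNAC4 rose with a slope of 1.05 ± 0.23, a value that was 0.65 under library totals. Its call was lost without the 0:100 library (0.60, adjusted p = 0.141, edgeR). Without that library the list had 8 calls of 24 in place of 15, and 30.5% of all genes tested were called. With 2 libraries against 2, ST6GALNAC1 (2.76, adjusted p = 0.0548), GALNT11 (-1.01, 0.0790) and ST6GALNAC4 (0.67, 0.137) were not called (edgeR).

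Genes of the mucous secretory programme were split too, with 5 of 7 tested called, 3 rising and 2 falling, and a median slope of 0.68. The share called was 71.4%, against 45.8% of all genes tested (23.5% rising, 22.3% falling). SPDEF had 0, 37, 51, 70 and 85 reads (slope 3.52 ± 0.60, adjusted p = 0.000419, edgeR), so it was detected only where HCC827 RNA was present. FOXA1, a pioneer factor of airway epithelium, had 1.02, 28.3, 27.1, 39.0 and 105 CPM (3.88 ± 0.53, adjusted p = 8.82e-05, edgeR). AGR2, a disulfide isomerase needed for gel mucin folding, rose by 0.68 ± 0.14, but under library totals the slope was 0.27 (adjusted p = 0.103, edgeR). With 2 libraries against 2, the calls of SPDEF (2.59, adjusted p = 0.0551), FOXA1 (2.49, 0.0843) and AGR2 (0.48, 0.0900) were lost (edgeR).

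FOXA2 and CREB3L1 fell. FOXA2, known as a repressor of airway mucus genes, had 150, 169, 128, 51 and 30 reads (slope -1.86 ± 0.28, adjusted p = 0.000156, edgeR). CREB3L1, a membrane-bound factor that acts in secretory cells, had 247, 227, 146, 47 and 1 (-3.51 ± 0.53). Both were lowest in HCC827, where the gel mucin genes were highest. A link between them was not tested, and 22.3% of all genes tested fell with HCC827. TFF2, TFF3, CLCA1, BPIFA1, BPIFB1, SCGB1A1 and SCGB3A1, products of normal mucous or club cells, had 0 reads in every library.

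**Figure D4:**
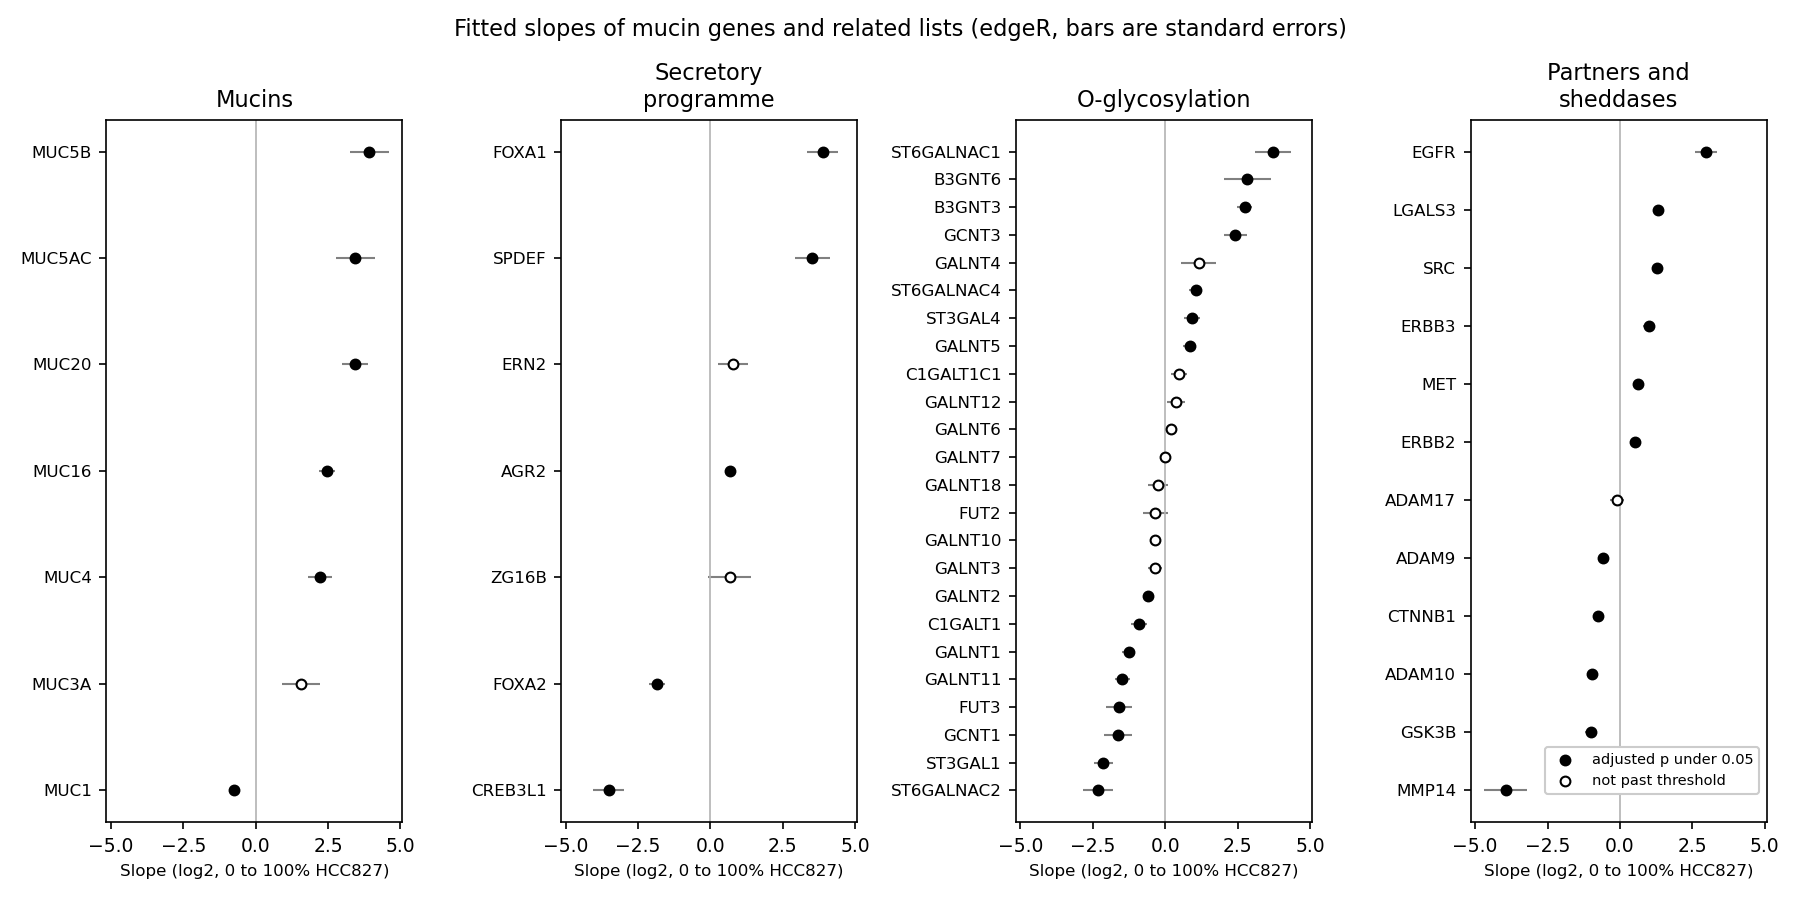
Fitted slopes (log2 change from 0 to 100% HCC827) with standard errors for mucins and 3 related gene lists, filled where the adjusted p was under 0.05. MUC1 is the mucin below 0, and the O-glycosylation list spreads from -2.32 to 3.72.

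Among known partners and proteases of membrane mucins, 11 of 12 tested genes were called, 6 rising and 5 falling, with a median slope of 0.21. The share called was 91.7%, against 45.8% of all genes tested (23.5% rising, 22.3% falling). Under library totals 9 of 12 were called (51.0% of all genes tested), and with 2 libraries against 2, 3 of 12 (17.3% of all genes tested). The 6 rises included ERBB2 and MET, with slopes of 0.53 and 0.61. Under library totals their slopes were 0.12 and 0.20 and they were not called (adjusted p = 0.558 and 0.292, edgeR). EGFR, a receptor reported to bind MUC1, had 107, 375, 529, 713 and 835 CPM (slope 2.96 ± 0.38, adjusted p = 4.95e-05, edgeR), with a slope of 1.96 without the 100:0 library. LGALS3, the galectin that binds MUC1 sugars, rose by 1.31 ± 0.13, SRC by 1.28 ± 0.18 and ERBB3 by 0.99 ± 0.20. The ERBB3 slope was 0.65 without the 100:0 library and 0.58 under library totals, and its call was lost with 2 libraries against 2 (adjusted p = 0.113, edgeR). MSLN, the partner of MUC16, had 2 reads in all, so MUC16 was present with almost no mesothelin transcript.

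CTNNB1, which encodes beta-catenin and binds the MUC1 tail, fell from 391 to 171 CPM (slope -0.76 ± 0.13, adjusted p = 0.000399, edgeR). The sheddase genes ADAM10 (-0.96 ± 0.18) and MMP14 fell with it, as did GSK3B, from 45.7 to 15.8 CPM. ADAM17, a sheddase gene of the same list, was not called (slope -0.11 ± 0.24, adjusted p = 0.735, edgeR). MMP14 had 1161, 1100, 617, 261 and 0 reads (-3.95 ± 0.74, adjusted p = 0.000829, edgeR), and its slope was -2.53 without the 0:100 library. The DESeq2 Wald test did not call MMP14 (-5.10, adjusted p = 0.190). With 2 libraries against 2, the calls of CTNNB1 (-0.55, adjusted p = 0.0673), ADAM10 (-0.68, 0.0661), GSK3B (-0.71, 0.0768) and MMP14 (-2.70, 0.123) were lost (edgeR). The CTNNB1 slope was -1.16 under library totals. COL1A1 ran in the same direction, with 532 reads at 100:0 and 19 at 0:100, and the part of such a difference in the MMP14 result was not tested.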

How the data were processed

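Long-read cDNA of 5 libraries was analysed from 1 deposited table per library. The tables hold estimated counts of reads per transcript, made by the authors and not scaled; the submitters' processing notes name minimap2 2.24, Salmon 1.9.0 and GRCh38 without their roles, and the annotation release is not given in the sources used here. After 161 repeated identifiers were summed and 2 values that were not whole were rounded, 224076 of 227751 human transcripts matched GENCODE v44, with 98.6% of human reads. Counts were summed per gene.

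The mucin genes, the related lists and the named genes were chosen with earlier results of these data known. Named genes are all members and, per list, up to 4 in each direction with the smallest adjusted p. Others, such as ERBB2, MET and ADAM17, are named for context. The trend was the edgeR quasi-likelihood slope on the HCC827 mass fraction (edgeR 4.0.16, R 4.3.3, TMM scaling, at least 10 reads in at least 2 libraries, Benjamini-Hochberg threshold 0.05), tested on simulated data. DESeq2 1.42.0 and limma 3.58.1 were alternatives. Intervals are 95% exact Poisson (counts) or Wilson (shares) and cover counting error only, since PCR copies count as separate reads. The libraries held 2932250, 4058751, 3879301, 3076856 and 3092629 reads from 100:0 to 0:100. Promoter sequences were examined for motifs and not used.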

Additional observations from a re-analysis of the deposited data

How the results depend on the processing

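No paired analysis was possible because each ratio had 1 library. No slope of a named gene changed sign under any alternative run, and MUC1, MUC16, MUC20 and MUC4 passed the threshold in every alternative that tested them. Requiring 10 reads in every library left 3 members to test (MUC1, MUC4 and MUC16), of which 3 were called. It gave 2 calls of 3 tested in the secretory list and 7 of 8 for member transcripts. Over all genes that setting called 5300 of 10884 (48.7%). Setting 2 libraries against 2 called 2291 of 13251 genes (17.3%) and 4 of 7 members. It called 5 of 24 in the O-glycosylation list, 2 of 6 in the secretory list and 3 of 12 partners. Leaving out 1 library at a time gave 4067 to 5860 calls over all genes (4067 without 0:100), or 30.5 to 44.2% of those tested. It called 6 of 7 members each time, 8 to 15 of 24 O-glycosylation enzymes (8 without 0:100), 9 to 11 of 12 partners and 10 to 13 member transcripts. Under library totals the other mucins had 2 calls of 2 tested, against 51.0% of all genes tested. The MUC5B to MUC1 ratio in HCC827, 0.0608 per length, was 0.839 with no length scaling. With a floor of 10 reads, 4 of 8 members were at least 4-fold apart, and with library totals 5. The depth limits MUC13, MUC3A, MUC5AC and MUC4 most, each with under 50 reads in every library, and MUC1 shares to differences larger than their intervals.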
